A study of Mus musculus with 16 samples.

Results

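The genes described here carry the signal of leukaemia inhibitory factor (LIF) from the surface of mouse embryonic stem cells to the transcription factor Stat3. They are Lif, Lifr, Il6st, Jak1, Jak2, Ptpn11, Stat3, Socs3, Pim1 and Pim3, 10 of the 18194 genes that the array's annotation names singly. Every probe set whose platform annotation gives one of them as its only gene was taken, which makes 29 of the 45101 probe sets of the array. A probe set is a group of short oligonucleotides that together report 1 stretch of transcript, and its value is a fluorescence intensity. Gene expression was measured on 16 arrays that all carried total RNA of E14tg2a cells, an established mouse embryonic stem cell line that grows without feeder cells. For the amplified group (n = 8), 10 pg of this RNA, near what 1 cell holds, was reverse transcribed and PCR-amplified by the V1V3 method before labelling. The nonamplified group (n = 8) used 5 µg of the undiluted RNA with no PCR step. The replicates of both groups are technical, drawn from 1 column-purified RNA, so the p-values here measure the spread between arrays of 1 RNA and no biological spread, and no difference here reflects cell number or RNA per cell.

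LIF binds its receptor Lifr, which then pairs with Il6st, the shared signalling chain known as gp130. The paired receptor activates Janus kinases, mainly Jak1, which phosphorylate the receptor tails and Stat3. Phosphorylated Stat3 enters the nucleus and switches on genes that keep mouse embryonic stem cells in the undifferentiated state. Socs3 is among these targets and shuts the receptor off, while Ptpn11, the phosphatase Shp2, leads the signal into the ERK branch. Pim1 and Pim3 are serine/threonine kinases whose genes are Stat3 targets.

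The array medians of all probe sets other than controls averaged 51.7 ± 1.44 (SD, n = 8) without and 35.0 ± 1.07 (SD, n = 8) with amplification. No value in the table is below 1. The 8 embryonic stem cell markers examined had nonamplified means from 573 to 8422 and amplified means from 241 to 10475. Of the 8, 3 were called higher and 4 lower, where 23.8% of all genes, at 1 probe set each, were called higher and 29.9% lower. Nanog went from 1776 ± 61.0 to 276 ± 79.5 (SD, n = 8 each; difference −2.66, limma adjusted p = 4.41e-11). The 3 called higher were Sox2 (0.31), Dppa5a (0.31) and Tdgf1 (0.59). Pou5f1 (−0.41), Esrrb (−1.18) and Fgf4 (−1.36) were lower too, and the 3 probe sets of Esrrb ran from −4.43 to 0.50. Their summed intensity per array, which the brightest probe sets set, was 27919.7 to 29228 without and 29733 to 32164 with amplification. The 8 fibroblast markers summed to 261 to 351 and 197 to 338, with marker means of at most 82.0 in either group, and 3 of 4 blood markers to 67.3 to 127 and 25.8 to 122. The part of these markers in the results was not tested.

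All 4 probe sets of Il6st, both of Pim1, 2 of 3 of Ptpn11 and 1 tested probe set each of Lifr, Jak1 and Stat3 were lower after amplification, whereas 2 probe sets of Pim3 were higher on the deposited scale. Of the 29 probe sets, 22 passed the filter on low intensity (a level, averaged on the log2 scale over the 16 arrays, above 33.7) and were tested. Of the tested probe sets, 13 passed an adjusted p of 0.05 in limma, 2 of them higher and 11 lower in the amplified group, and 9 did not pass. Of the 22, 4 passed the filter only through the nonamplified arrays and so had to be lower (Il6st 1421239_at and 1437303_at, Ptpn11 1427699_a_at and Stat3 1426587_a_at), and 0 only through the amplified arrays. The counts of members are therefore descriptions. Over all 27022 tested probe sets 57.5% were called, 24.7% higher and 32.8% lower, so the share of called members (59.1%) was close to the background. The median difference on the log2 scale was −0.37 over the 22 and −0.17 over all tested probe sets. The ranges of the groups were separate for 10 of the 22, against 33.6% of all tested probe sets. The split of calls moved with the scaling of the arrays. It was 5 higher and 10 lower after centring arrays on their medians, 4 and 10 when scaled on the brighter 50% of probe sets, 1 and 11 under quantile normalization, and 0 and 13 when scaled on the hybridization controls. These scalings moved the median of all tested probe sets to 0.24, 0.075, −0.029 and −0.59. Of the calls over all probe sets, 43.0% were higher as deposited and 63.2%, 55.6%, 50.7% and 22.5% under the same 4 scalings.

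**Figure D1:**
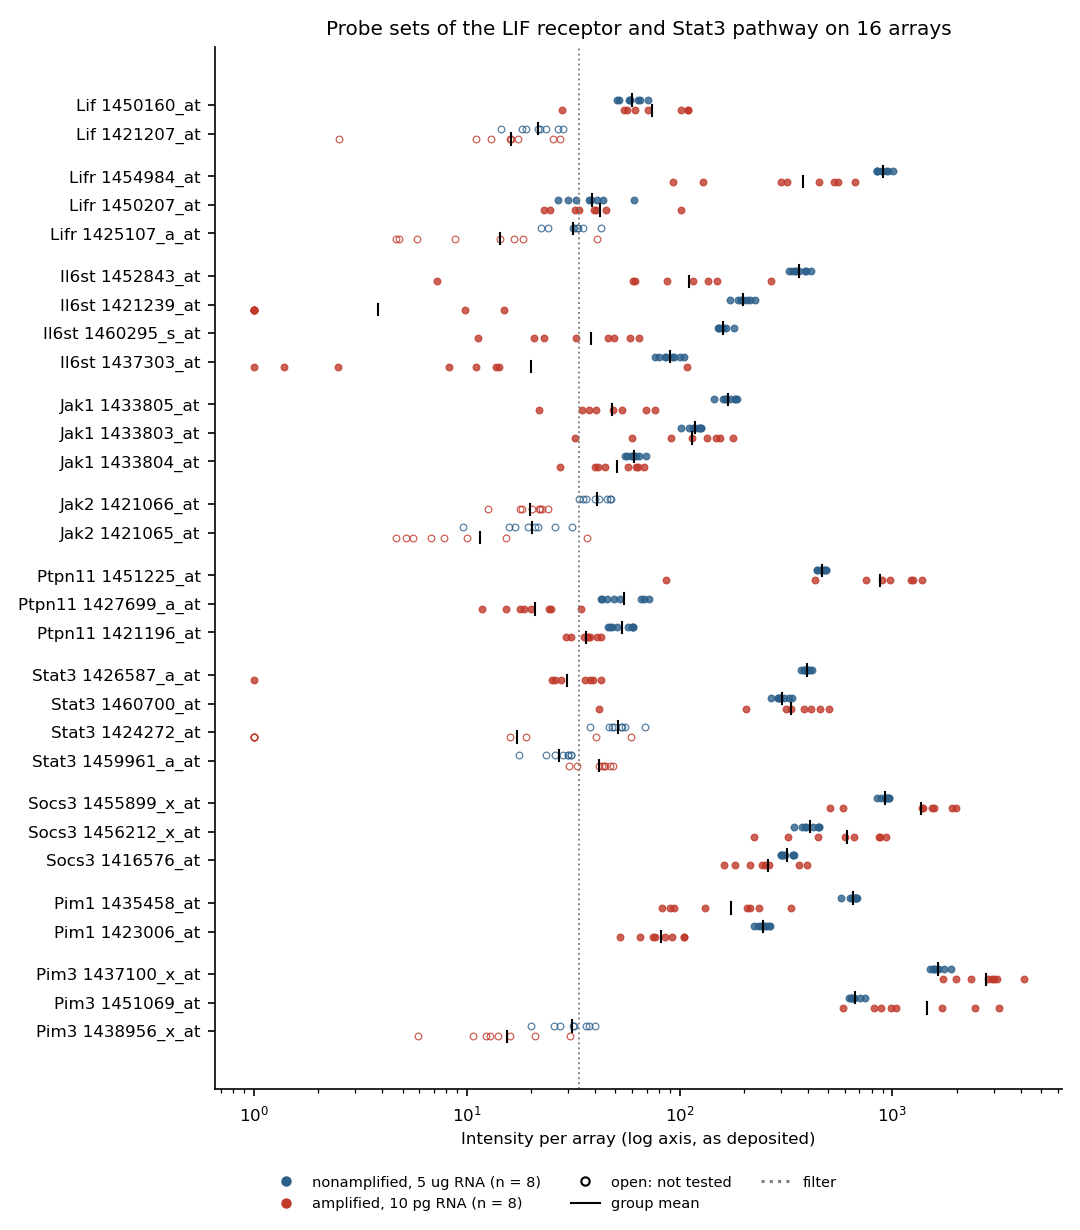
Intensity on each of the 16 arrays (log axis, as deposited) for the 29 probe sets, grouped by gene, with nonamplified arrays in blue, amplified arrays in red, a black tick at each group mean, open circles for probe sets that were not tested and a dotted line at the filter value of 33.7. At 21 of the 22 tested probe sets the red points are more spread out than the blue ones on the log2 scale, with the 4 tested Il6st probe sets, both Pim1 probe sets and Stat3 1426587_a_at shifted to the left.

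The ligand was dim in both groups, above the median of its own array on 7 of 8 arrays in each. Lif probe set 1450160_at ranged from 51.0 to 70.8 with a median of 58.5 on nonamplified arrays and from 28.0 to 109.7 with a median of 66.5 on amplified arrays. Of the 8 amplified arrays, 4 lay above and 1 below the whole nonamplified range. The difference of 0.18 on the log2 scale (SE 0.19, 95% interval −0.21 to 0.58) did not pass the test (limma adjusted p = 0.431). Lif was called higher under quantile normalization (0.56) and with arrays centred on their medians (0.59). It was −0.24 when scaled on the hybridization controls and did not pass. The other Lif probe set, designed from the same sequence record, was not tested, with means of 21.8 and 16.1.

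Lifr, the receptor chain that binds LIF, was lower at its brightest probe set. On nonamplified arrays 1454984_at ranged from 842 to 1009.6 with a median of 895. On amplified arrays it ranged from 93.4 to 671 with a median of 385, so all 8 amplified arrays lay below all 8 nonamplified ones. The means were 902 ± 61.0 and 381 ± 206 (SD, n = 8 each), a difference of −1.44 on the log2 scale (SE 0.33, limma adjusted p = 0.00118). At 1450207_at the difference was 0.030 (95% interval −0.38 to 0.44, limma adjusted p = 0.909). There amplified replicate 8, at 101, stood above the other 7 (23.2 to 45.1), and without it the difference was −0.13 and did not pass. The 2 probe sets of Lifr moved by different amounts (difference of the differences 1.47 on the log2 scale, exact 2-sided permutation p = 0.00186, adjusted p = 0.00485 over 13 such pairs). The remaining Lifr probe set, 1425107_a_at, was not tested, with means of 31.7 and 14.3. With no filter it was called lower (−0.73, limma adjusted p = 0.00343).

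All 4 probe sets of Il6st, the signal-transducing chain gp130, were lower in the amplified group, and this held under each alternative that tested them. Of these, 1421239_at and 1437303_at passed the filter only through the nonamplified arrays and so had to be lower. The reference probe set of a gene is the one with the highest nonamplified mean, here 1452843_at. Its intensity ranged from 326 to 415 with a median of 358 without amplification, and from 7.25 to 269.9 with a median of 101 after it, without overlap. The difference was −1.87 (SE 0.36, limma adjusted p = 0.000299). The amplified arrays differed 37.2-fold between the lowest and the highest, the nonamplified ones 1.27-fold.

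With the pseudocount of 16, the largest decrease among the tested members was at Il6st 1421239_at. This probe set ranged from 172 to 226 without amplification, whereas 6 of 8 amplified arrays were at the floor of 1 and the other 2 reached at most 14.9. It passed the filter only through the nonamplified arrays, so its direction was set by the filter. Its difference was −3.48 (SE 0.13, limma adjusted p = 1.13e-12) on this scale. It was −5.96 with a pseudocount of 1 and −1.96 with one of 64, since values at the floor leave the size of the change to the pseudocount. The probe set 1460295_s_at was designed from the same sequence record, yet it kept amplified intensities from 11.3 to 64.3, against 152 to 179 without amplification (difference −1.79, SE 0.19, limma adjusted p = 5.53e-07). Relative to the reference probe set, 1421239_at was at −1.60 (exact 2-sided permutation p = 0.00249, adjusted p = 0.00539). As the filter had set the direction of 1421239_at, this comparison is a description. For 1460295_s_at and 1437303_at the difference from the reference probe set was 0.087 and −0.033 (adjusted p = 0.945 for each, exact permutation).

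Il6st 1437303_at showed a single array apart from the others. On nonamplified arrays it ranged from 76.8 to 105, and on 7 amplified arrays from 1 to 14.3. Amplified replicate 3 reached 108, above every nonamplified array. The difference was −1.91 (SE 0.32, limma adjusted p = 6.71e-05) with that array and −2.21 without it. With pseudocounts of 1 and 64 it was −3.32 and −0.95. The direction of this probe set, too, was set by the filter.

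Of the kinases, Jak1 was lower at 1 of 3 probe sets, although all 3 were designed from the same sequence record. At 1433805_at nonamplified arrays ranged from 145 to 187 (median 169) and amplified arrays from 21.8 to 76.9 (median 44.6), without overlap. The difference was −1.59 (SE 0.16, limma adjusted p = 1.65e-07). At 1433803_at the nonamplified range of 102 to 127 lay inside the amplified range of 32.4 to 178, with 4 amplified arrays above it and 3 below.

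There the difference was −0.16 (95% interval −0.66 to 0.33, limma adjusted p = 0.579). At 1433804_at the groups overlapped too, at 55.3 to 69.3 and 27.4 to 67.8, with a difference of −0.24 (95% interval −0.50 to 0.029, limma adjusted p = 0.119). Both of these turned positive without passing under quantile normalization, array medians and the brighter 50% scaling, and 1433804_at passed as lower (−0.66) when scaled on the hybridization controls. Both moved less than 1433805_at, by 1.42 and 1.35 on the log2 scale. The exact 2-sided permutation p = 0.000155 in each case, the smallest that 12870 regroupings can give (adjusted p = 0.000673).

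Jak2, the second kinase of the family that gp130 can use, did not pass the filter with either probe set. At 1421066_at nonamplified arrays ranged from 33.8 to 47.7 and amplified arrays from 12.6 to 24.0, all 16 below the median of their own array. The other probe set, of the same sequence record, had means of 20.2 and 11.5. With no filter on intensity, 1421066_at was called lower (−0.67, SE 0.092, limma adjusted p = 1.01e-05) and 1421065_at did not pass (−0.45, limma adjusted p = 0.0520).

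Ptpn11, the phosphatase Shp2, gave opposite signs at its probe sets. The reference probe set 1451225_at lay between 442 and 490.2 on all 8 nonamplified arrays. On amplified arrays it was above 490.2 on 6 arrays, reaching 1374, and below 442 on 2, at 431 and 86.0. The difference was 0.57 (SE 0.42, 95% interval −0.32 to 1.46, limma adjusted p = 0.267). Amplified replicate 2 held the value of 86.0, and without it the difference was 0.97 and passed the test (SE 0.19, limma adjusted p = 0.000502).

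The dim Ptpn11 probe sets were lower, with no overlap between groups. The level of 1427699_a_at was 34.5 over the 16 arrays, and it was not tested with the filter on the mean of intensities. It passed the main filter only through the nonamplified arrays and so had to be lower. 1427699_a_at went from 42.6 to 72.2 on nonamplified arrays to 11.8 to 34.3 on amplified ones (difference −0.95, SE 0.13, limma adjusted p = 8.89e-06). 1421196_at went from 46.1 to 60.3 to 29.3 to 42.6 (difference −0.41, SE 0.083, limma adjusted p = 0.000438). The latter did not pass under quantile normalization (−0.0014), array medians (−0.00047) or the brighter 50% scaling (−0.16), so its call rests on the scaling. The distance from the reference probe set was −1.52 for 1427699_a_at (exact permutation p = 0.0103, adjusted p = 0.0190) and −0.98 for 1421196_at (exact permutation p = 0.0614, adjusted p = 0.0887). As the filter had set the direction of 1427699_a_at, its distance is a description. These distances were not tested under quantile normalization, where 1427699_a_at was at −0.54, 1421196_at at −0.0014 and the reference probe set at 0.14.

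**Figure D2:**
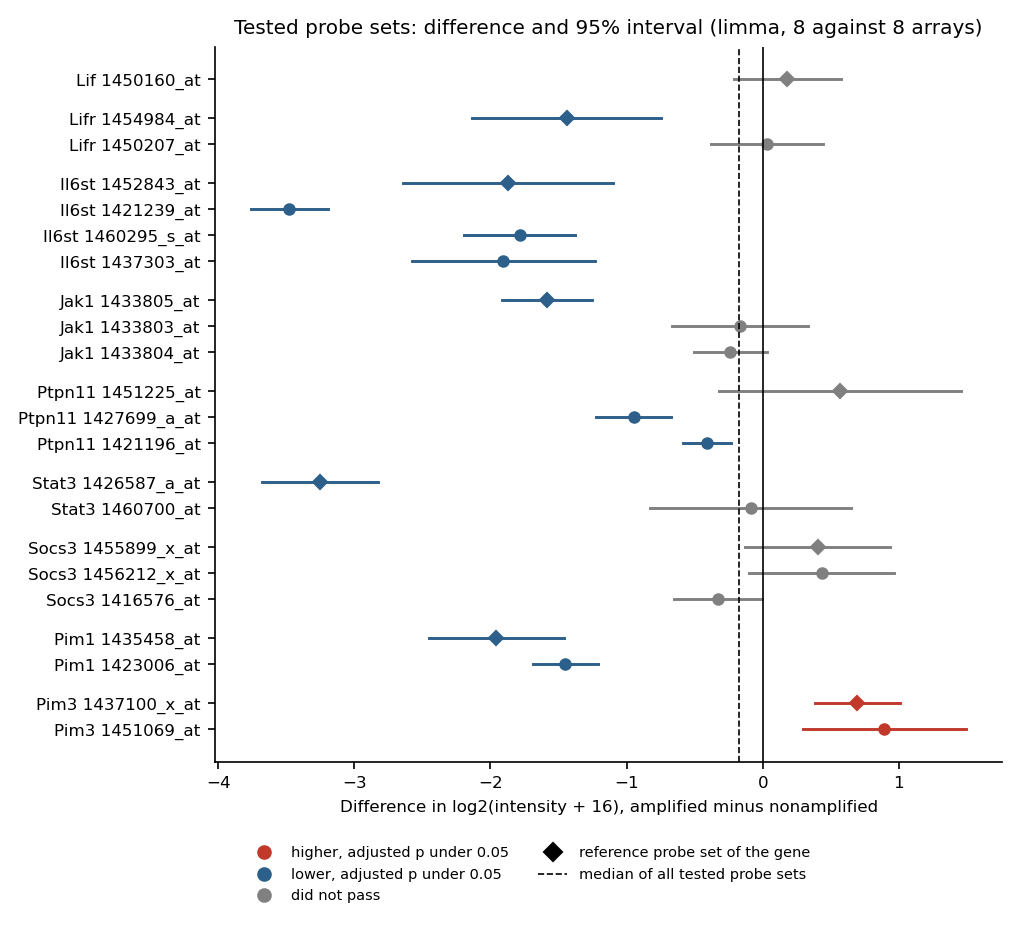
Difference in log2(intensity + 16), amplified minus nonamplified, with its 95% interval from limma (8 against 8 arrays) for the 22 tested probe sets; diamonds mark the reference probe set of each gene, colours the call, and the dashed line the median of all tested probe sets (−0.17). Stat3 and Jak1 each have 1 probe set far to the left (−3.25 and −1.59) and others whose intervals include 0, while the 4 Il6st probe sets are all to the left.

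Stat3, the transcription factor at the end of the pathway, gave the widest disagreement between probe sets of a gene among the members. 1426587_a_at ranged from 374 to 419.7 (median 393) without amplification, and from 1 to 42.9 (median 31.9) after it, without overlap. The mean went from 395 ± 14.9 to 29.5 ± 13.3 (SD, n = 8 each), a difference of −3.25 (SE 0.20, limma adjusted p = 4.61e-10). This probe set passed the filter only through the nonamplified arrays and so had to be lower, which makes the difference a description. The suffix _a_at marks a probe set that reads alternative transcripts of 1 gene. Amplified replicate 5 was at the floor of 1, and the other 7 amplified arrays lay between 25.1 and 42.9.

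Stat3 1460700_at did not pass the test. Nonamplified arrays ranged from 269.8 to 339 with a median of 297, and amplified arrays from 41.8 to 505 with a median of 359. Of the amplified arrays, 4 lay above, 2 within and 2 below the nonamplified range, with amplified replicate 7 at 41.8 and the other 7 between 206 and 505. The difference was −0.089 (95% interval −0.83 to 0.65, limma adjusted p = 0.847) and 0.25 without that replicate, which did not pass either. The difference between the 2 probe sets was 3.17 on the log2 scale (exact 2-sided permutation p = 0.000155, adjusted p = 0.000673). As the direction of 1426587_a_at was set by the filter, this comparison is a description too.

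The other 2 Stat3 probe sets did not pass the filter and were not tested. 1424272_at had means of 51.5 and 17.3, with 4 of 8 amplified arrays at the floor of 1. 1459961_a_at had means of 27.1 and 41.7, and its level of 33.6 over the 16 arrays was just under the filter value, whereas Ptpn11 1427699_a_at, at 34.5, was just above it. With no filter 1424272_at was called lower (−1.25, limma adjusted p = 0.00198) and 1459961_a_at higher (0.42, limma adjusted p = 0.00215). With a filter on the nonamplified mean, the group where it was brighter, 1424272_at was tested and called lower (limma adjusted p = 0.00187).

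Socs3, the inhibitor that Stat3 induces, did not pass the test at any of its 3 probe sets. 1455899_x_at ranged from 846 to 967 on nonamplified arrays. On amplified arrays it ranged from 511 to 1979 with a median of 1460.3, above the nonamplified range on 6 arrays and below it on 2. The difference was 0.40 (SE 0.25, 95% interval −0.13 to 0.94, limma adjusted p = 0.184).

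1456212_x_at gave 0.43 (95% interval −0.098 to 0.97, limma adjusted p = 0.153) and 1416576_at −0.33 (95% interval −0.65 to −0.0060, limma adjusted p = 0.0764). The suffix _x_at marks probe sets in which some probes may also bind other sequences. The 2 _x_at probe sets differed from each other by 0.029 (exact permutation p = 0.790, adjusted p = 0.934), while 1416576_at lay 0.73 below 1455899_x_at (difference −0.73, exact permutation p = 0.00140, adjusted p = 0.00455). This gap was not tested under quantile normalization, where 1416576_at was at −0.43 and 1455899_x_at at −0.26. Calls for Socs3 turned on single arrays and on the scaling. 1455899_x_at was called higher without amplified replicate 3 (0.58) or 8 (0.55), and 1456212_x_at without amplified replicate 3 (0.61). 1416576_at was called lower without amplified replicate 4 (−0.40) or 6 (−0.42), under quantile normalization (−0.43) and when scaled on the hybridization controls (−0.75). Both _x_at probe sets were called higher with array medians (0.81 and 0.84) and with the brighter 50% scaling (0.65 and 0.68), and 1455899_x_at turned to −0.26 under quantile normalization without passing.

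The 2 Pim kinases, targets of Stat3, were called in opposite directions on the deposited scale, though the calls of Pim3 were lost under 2 other scalings. Pim1 1435458_at ranged from 572 to 679 (median 667) without amplification and from 82.9 to 333 (median 169) after it. The difference was −1.96 (SE 0.24, limma adjusted p = 1.90e-06). Pim1 1423006_at went from 225 to 265 to 52.4 to 105, a difference of −1.45 (SE 0.11, limma adjusted p = 9.28e-09). Neither probe set overlapped between groups, and the gap of 0.51 between them did not pass (exact permutation p = 0.0354, adjusted p = 0.0576).

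Pim3 1437100_x_at was higher, from 1508 to 1878 (median 1614) on nonamplified arrays to 1729 to 4128 (median 2866) on amplified ones. Of the 8 amplified arrays, 7 lay above the whole nonamplified range and 1 inside it. The mean went from 1641 ± 120.5 to 2747 ± 748 (SD, n = 8 each), a difference of 0.69 (SE 0.15, limma adjusted p = 0.000665). At 1451069_at, nonamplified arrays lay between 624 and 742. Amplified arrays lay between 589 and 3178 with a median of 1012, and 7 of 8 were above the nonamplified range. The difference was 0.89 (SE 0.28, limma adjusted p = 0.0126). Under quantile normalization the differences were −0.11 and 0.29, and on the hybridization controls 0.27 and 0.48, none of which passed. The remaining Pim3 probe set, 1438956_x_at, was not tested, with means of 31.4 and 15.4. With no filter it was called lower (−0.61, limma adjusted p = 0.00156), opposite to the others of the gene.

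**Figure D3:**
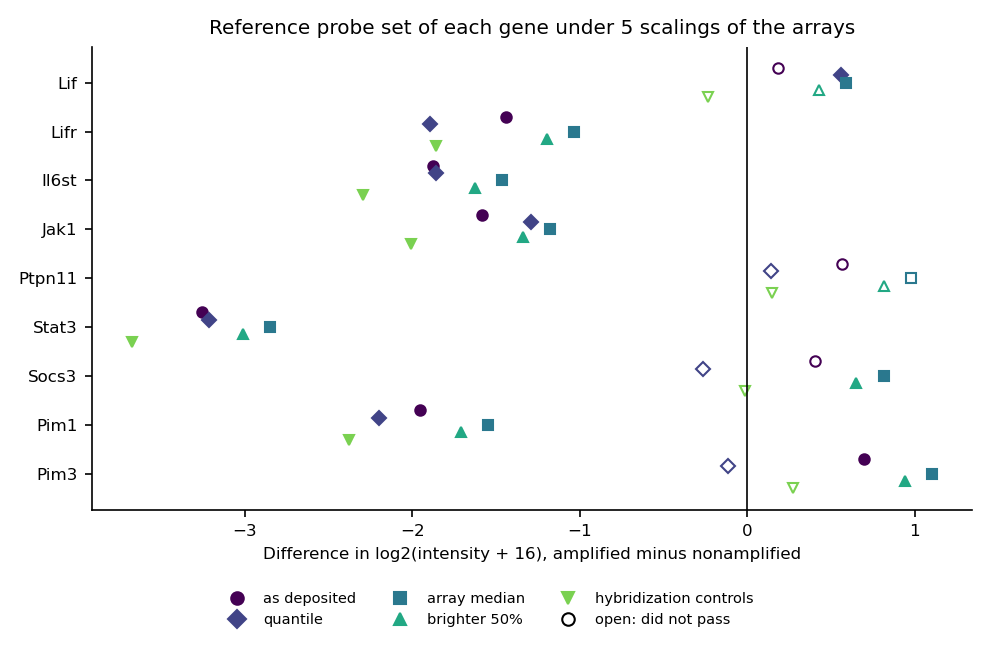
Difference in log2(intensity + 16), amplified minus nonamplified, of the reference probe set of each of 9 genes under 5 scalings of the arrays, with filled symbols where limma's adjusted p was under 0.05. Lifr, Il6st, Jak1, Stat3 and Pim1 stay left of 0 with filled symbols under all 5, whereas Pim3 runs from −0.11 to 1.10, Socs3 from −0.26 to 0.81 and Lif from −0.24 to 0.59.

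The reference probe sets of Lifr, Il6st, Jak1, Stat3 and Pim1 kept their direction and their call under all 13 alternatives and when each of the 16 arrays was left out in turn. Across the 13 alternatives Stat3 ranged from −4.05 to −2.31, Il6st from −2.29 to −1.42, Pim1 from −2.37 to −1.55, and Lifr from −1.89 to −1.03, while Jak1 was at most −1.08. These are differences in the signal of 1 probe set each, and Stat3, Jak1 and Lifr had other probe sets that did not pass. For Stat3 the main filter had set the direction, since 1426587_a_at passed it only through the nonamplified arrays.

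Amplified arrays varied more than nonamplified arrays at 21 of the 22 tested probe sets, as they did at 90.4% of all tested probe sets. The exception was Ptpn11 1421196_at, with an SD on the log2 scale of 0.13 in both groups. The median SD of the members was 0.56 on amplified and 0.098 on nonamplified arrays, near the medians of 0.51 and 0.13 over all tested probe sets. Ptpn11 1451225_at had an amplified SD of 1.25 against 0.056, the widest among the members on the log2(intensity + 16) scale, though with a pseudocount of 1 the SEs of Il6st 1437303_at (0.63), Il6st 1452843_at (0.51) and Stat3 1426587_a_at (0.50) exceeded that of Ptpn11 (0.45). Il6st 1452843_at had 1.07 against 0.11 and Stat3 1460700_at 1.03 against 0.10. Spread was described without a test.

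For some genes the amplified arrays rose and fell together at several probe sets. The 2 _x_at probe sets of Socs3 had SDs of 0.73 and 0.72 over the amplified arrays, but the SD of the difference between them within an array was 0.25. Replicate 3 was the lowest and replicate 4 the highest amplified array at both. For Pim3, replicate 6 was the lowest and replicate 2 the highest at both tested probe sets, and the SD of the difference was 0.56 against SDs of 0.40 and 0.83. For Il6st the differences from the reference probe set had SDs from 1.32 to 1.34, larger than that of any of its probe sets (0.35 to 1.07), and the lowest array was not the same one. For Stat3 the SD of the difference was 1.26. No array was low throughout. The lowest amplified array was replicate 2 for 5 of the 21 probe sets without ties, and every amplified replicate was the lowest for at least 1. Nonamplified replicate 5 was the lowest of its group at 10 of 22 probe sets, with a median deviation of −0.047 on the log2 scale.

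**Figure D4:**
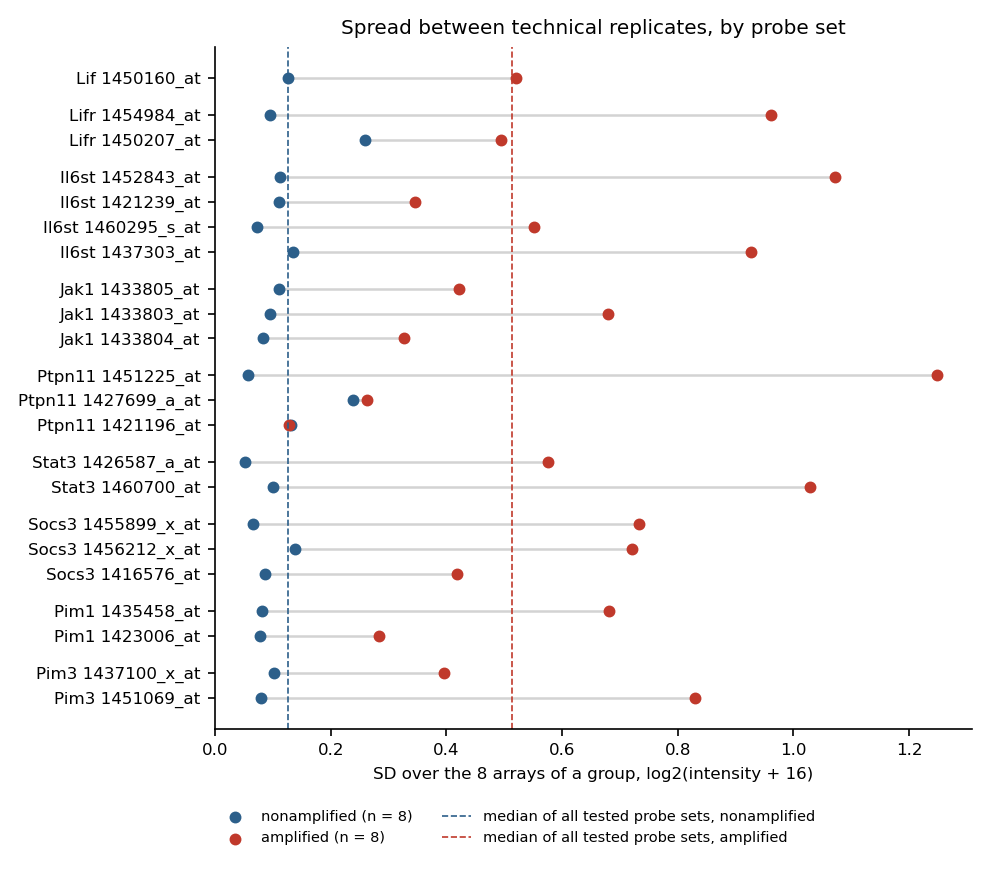
SD over the 8 arrays of each group on the log2(intensity + 16) scale for the 22 tested probe sets, nonamplified in blue and amplified in red, with dashed lines at the medians over all tested probe sets (0.13 and 0.51). The nonamplified SDs lie between 0.052 and 0.26, the amplified ones between 0.13 and 1.25.

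Other genes of the pathway were read from a list of 51, of which 45 had a probe set naming them alone and 42 passed the filter. Each was read at the tested probe set with the highest nonamplified mean. Of the 42, 10 were higher, 20 lower and 12 did not pass. Over 13660 genes chosen in the same way 53.7% were called, 23.8% higher and 29.9% lower, against 30 of the 42 here. The 20 lower genes include Ctf1, Osmr, Stat5a and Fos, with amplified means of 22.1, 30.5, 30.3 and 27.0, under the filter value of 33.7. These passed the filter only through the nonamplified arrays and had to be lower, so the counts of the list are descriptions. The median difference was −0.60 in the list and −0.15 over all genes. The split was 12 higher and 8 lower with array medians, 12 and 12 with the brighter 50% scaling, 5 and 23 on the hybridization controls and 9 and 19 under quantile normalization. The groups did not overlap for 9 of the 42 genes, against 29.8% of the 13660.

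Counts by role are on the deposited scale only, where 23.8% of all genes were called higher and 29.9% lower. The 6 tested ligands and receptors of the gp130 family held 2 higher and 3 lower. Ctf1, cardiotrophin 1, another ligand of the Lifr and gp130 pair, ranged from 68.9 to 134 without and from 9.84 to 34.0 with amplification (difference −1.51, SE 0.16, limma adjusted p = 5.22e-07). Its amplified mean of 22.1 was under the filter value of 33.7. Ctf1 thus passed the filter only through the nonamplified arrays and had to be lower, which makes its difference a description. The 6 other kinases and STATs held 0 higher and 4 lower, with 23.8% of all genes called higher and 29.9% lower. Of the 4, Stat5a, with an amplified mean of 30.3, passed the filter of 33.7 only through the nonamplified arrays and had to be lower. Stat2, at an amplified mean of 34.8, was near the filter value. Stat6, which acts downstream of interleukin 4, had a difference of −1.16 (SE 0.28, limma adjusted p = 0.00224) without overlap.

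The 14 inhibitors and phosphatases held 3 higher and 6 lower. Ptpn2, a tyrosine phosphatase that acts on Janus kinases and STATs, rose from 668 ± 36.5 to 1882 ± 835 (SD, n = 8 each; difference 1.34, SE 0.23, limma adjusted p = 0.000105). Under quantile normalization it was 0.71 and still passed, and the differences of its 3 tested probe sets ran from −0.55 to 1.34. Socs1, a relative of Socs3, rose from 45.7 to 94.6 (difference 0.80, SE 0.14), and its 0.39 on the hybridization controls did not pass. Pias2, a SUMO ligase of the family that binds STATs, had a difference of −0.85 (limma adjusted p = 0.0431), which did not pass when replicate numbers were blocked (limma adjusted p = 0.0543), with array medians (−0.44), with the brighter 50% scaling (−0.60) or when any of 11 single arrays was left out. Its 3 probe sets ranged from −0.85 to 0.53.

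The 4 genes of the Ptpn11 branch held 2 higher and 1 lower. Gab1, a docking protein that binds Ptpn11, rose from 1149 ± 66.7 to 2238 ± 507 (SD, n = 8 each; difference 0.92, SE 0.12, limma adjusted p = 3.98e-06). Under quantile normalization its 0.15 did not pass, and another of its 3 tested probe sets had a difference of −5.26. Map2k1, the ERK kinase Mek1, had a difference of 0.64 (limma adjusted p = 0.00129), which was −0.083 under quantile normalization and 0.22 on the hybridization controls, neither of which passed.

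The 12 further targets held 3 higher and 6 lower. Mcl1, a survival protein of the Bcl2 family, went from 3304 ± 119 to 5086 ± 648 (SD, n = 8 each; difference 0.61, SE 0.086, limma adjusted p = 1.13e-05). Under quantile normalization it was called lower instead (−0.28), on the hybridization controls its 0.19 did not pass, and its 6 probe sets ranged from −1.76 to 1.02. Fos, an immediate early transcription factor, fell from a range of 118 to 161 to one of 9.76 to 78.1 (difference −1.96, SE 0.23, limma adjusted p = 1.11e-06). With an amplified mean of 27.0, Fos passed the filter of 33.7 only through the nonamplified arrays and had to be lower, so its difference is a description. Pim2, the other Pim kinase, fell with a difference of −1.12 (SE 0.26, limma adjusted p = 0.00137) and no overlap. Klf5, a factor of the pluripotency network, spread from 13.5 to 3477 on amplified arrays against 1073 to 1281 on nonamplified ones, and its difference of −0.88 had an SE of 0.94 and did not pass (limma adjusted p = 0.447).

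**Figure D5:**
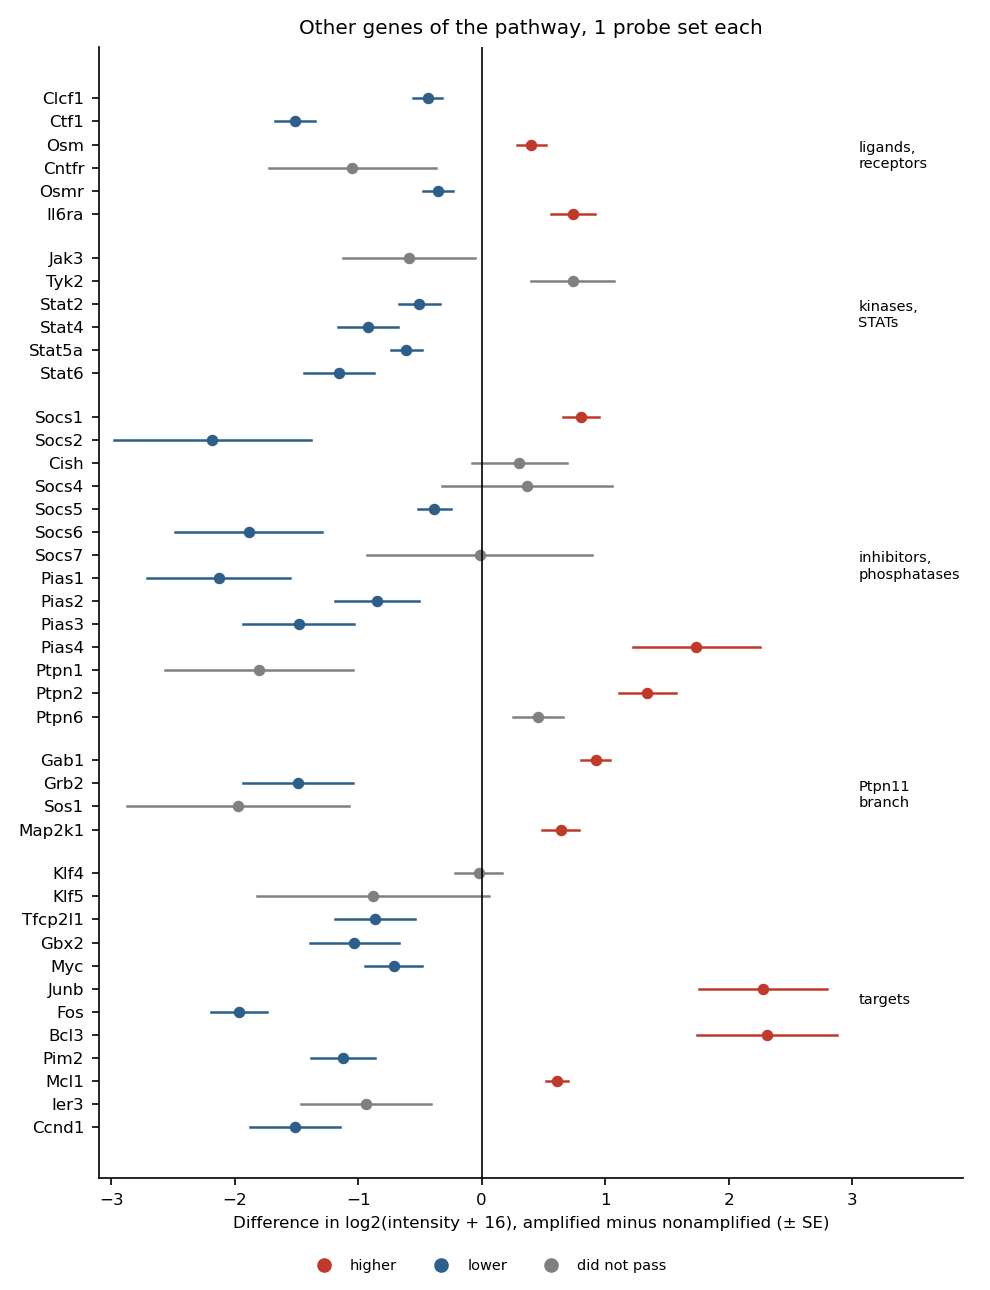
Difference in log2(intensity + 16), amplified minus nonamplified, with its SE from limma for 42 other genes of the pathway, 1 probe set each, grouped by role; red marks genes called higher, blue lower and grey those that did not pass. Red and blue genes stand side by side in every group except the kinases and STATs, where 4 of 6 are blue and none is red. Some blue genes, among them Ctf1, Osmr, Stat5a and Fos, passed the filter only through the nonamplified arrays and so had to be lower. Colours are those of the deposited scale, where 23.8% of all genes were called higher and 29.9% lower.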

How the data were processed

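Values in the deposited table are linear intensities, 1 for each probe set on each array, per the file headers, and none is below 1. How the authors summarised the probes and scaled the arrays is not given in the sources used here. cRNA was biotinylated by the Affymetrix one-cycle assay, per the labels' protocols. Genes were named from the platform annotation, updated through the gene identifiers of RefSeq GRCm38.p6 (34754 of 34958 probe sets with a single symbol matched).

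Values were transformed as log2(intensity + 16), so differences understate the change of dim probe sets. The 64 control probe sets were left out, as were those with a mean log2 value not above the 40th percentile (the log2 mean was chosen over the linear mean after both had been computed). The remaining 27022 entered 2-sided limma fits (lmFit and eBayes; limma 3.58.1, R 4.3.3) with no covariates. Benjamini-Hochberg adjustment ran over all 27022, at a threshold of 0.05. Probe sets of a gene were compared by exact permutation of the difference of log2 values within an array. These comparisons were repeated with other pseudocounts and without single arrays, but not under other scalings. The reference probe set was chosen on nonamplified intensities, which also enter the differences compared, so its choice is not independent of them. The fit was also run on simulated data with changes of 1 and 2 on the log2 scale at 100 probe sets each. It called 63 and 84 of them, 0 in the wrong direction, and 24 of 26822 unchanged ones. The simulation had normal noise, no floor and few changed probe sets, unlike these data, where 57.5% were called. Replicate numbers were not shown to pair arrays. Precision is limited by having 8 arrays a group. Scan dates and slides were not used here, and batches were not tested.

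The members, lists and tests were chosen with earlier results of these data known. Named were every member probe set and, from the list, the 4 largest called differences without overlap in each direction and the 4 brightest genes. Levels of different probe sets are not comparable. Of the 51 genes of the list, 6 had no probe set naming them alone and 3 did not pass the filter, so these were not tested.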

Additional observations from a re-analysis of the deposited data

Results flagged for a closer look

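At 6 of 44 groups of 8 arrays (22 tested probe sets in 2 groups), 1 array stood apart from the others of its group by the gap-to-range test of Dixon at the 95% level, where chance flags about 1 in 20. Of the 6, 5 were amplified arrays. Lifr 1450207_at read 101 on amplified replicate 8, with the others at 23.2 to 45.1. Il6st 1437303_at read 108 on amplified replicate 3, with the others at 1 to 14.3. Ptpn11 1451225_at read 86.0 on amplified replicate 2, with the others at 431 to 1374. Stat3 1426587_a_at read 1, the floor of the table, on amplified replicate 5, with the others at 25.1 to 42.9. Stat3 1460700_at read 41.8 on amplified replicate 7, with the others at 206 to 505. Pim1 1435458_at read 572 on nonamplified replicate 5, with the others at 633 to 679. The 5 amplified arrays were 5 different replicates.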

How the results depend on the processing

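Of the counts, only those by direction moved by over 1.5 times. Probe sets called higher were 2 as deposited, 5 with array medians, 4 with the brighter 50% scaling, 1 under quantile normalization, 0 on the hybridization controls, and 2 to 4 when single arrays were left out, with 4 without amplified replicate 3. Probe sets called lower were 11, and 7 with a 60th percentile filter, which tests 16 in place of 22. Genes of the list called lower were 20, and 8 with array medians and 12 with the brighter 50% scaling, and those called higher were 10, and 5 on the hybridization controls. Called members ranged from 9 to 18 over 13 alternatives, genes of the list from 20 to 32 over 14, and pairs of probe sets that differed from 7 to 8 of 13 without single arrays. Those pairs include ones with a probe set whose direction the filter had set. A filter on the mean of intensities, chosen after seeing the data, gave 12 called members.

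Directions that turned were those of Jak1 1433803_at (0.24 with array medians, 0.11 under quantile normalization, 0.081 with the brighter 50% scaling and 0.022 without amplified replicate 2, in a range of −0.26 to 0.022), Jak1 1433804_at (0.17, 0.16 and 0.0080 under the same 3 scalings) and Stat3 1460700_at (0.32 with array medians, 0.16 with the brighter 50% scaling and 0.25 without amplified replicate 7, in a range of −0.20 to 0.25). Socs3 1455899_x_at was −0.26 under quantile normalization and −0.014 on the hybridization controls, and 1416576_at 0.078 with array medians. Lif was −0.24 and Lifr 1450207_at −0.39 on the hybridization controls, and the latter −0.13, −0.0031 and −0.017 without amplified replicate 8, nonamplified replicate 1 or nonamplified replicate 8 (range −0.13 to 0.10). Under quantile normalization Pim3 was −0.11, Map2k1 −0.083 and Mcl1 −0.28. The cause was not tested.

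With the replicate number as a block, 13 members were called, 2 higher and 11 lower, and 28 genes of the list, and Pias2 was not called. Arrays of the same number were not shown to be paired. The correlation of their deviations ran from −0.0078 to 0.018 over 8 pairs, and 3 of 8 amplified arrays correlated best with their own number.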
